A study of Mus musculus with 33 samples.

Results

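The genes described here are those of GABA signalling: the receptor subunits, the enzymes that make and break down GABA, its transporters, and the scaffold and chloride transport genes that the receptors depend on. They were the 27 listed gene symbols found in the first column of the deposited count table, out of 24061 gene names there. Of the 27, 25 passed a filter on low counts and could be tested. The cerebellar subunit gene Gabra6 and the retinal-type rho subunit gene Gabrr1 did not.

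GABA is the main inhibitory transmitter of the brain, and the nucleus accumbens, a ventral striatal region, is built largely of GABA-releasing medium spiny neurons. GABA-A receptors are chloride channels of several subunits. Combinations with a gamma subunit gather at synapses through the scaffold protein gephyrin and carry fast inhibition, whereas combinations with delta, or with alpha4, alpha5 or alpha6, are found largely outside synapses and carry a lasting, tonic inhibition. GABA-B receptors act more slowly through G proteins.

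Bulk polyadenylated RNA of the nucleus accumbens of C57BL/6J mice was sequenced in 33 libraries, each taken as 1 mouse. Germ-free mice that received morphine (GF morphine, 5 libraries) or saline (GF saline, 6) were bred at the institution in isolators, on sterilised food and water, and matched in age to the conventionally raised mice. Conventionally raised mice from a supplier, 7 to 9 weeks old, drank antibiotics and received morphine (Abx morphine, 5) or saline (Abx saline, 6), or drank water and received morphine (H2O morphine, 5) or saline (H2O saline, 6). The antibiotic drink held vancomycin at 0.5 mg/mL, bacitracin at 0.5 mg/mL, neomycin at 2 mg/mL and the antifungal pimaricin at 1.2 µg/mL, and was given from 2 weeks before the injections until the end. Morphine was given at 20 mg/kg/day for 7 days. Whole cages were assigned to a drink, and the sources used here do not name each mouse's cage, so p-values here measure the spread between these libraries. GF mice differed from H2O mice in where they were bred and housed as well as in microbes, and these cannot be told apart.

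Depth in reads assigned to genes (M, megareads) ran from 5.84 to 7.29 M in GF morphine, 11.1 to 13.7 M in Abx morphine, 9.47 to 15.3 M in H2O morphine, 4.86 to 15.3 M in GF saline, 9.33 to 11.9 M in Abx saline and 9.65 to 12.2 M in H2O saline libraries. GF saline replicate 1, at 15.3 M reads, stood apart from the other GF saline libraries. Its cortical-type glutamatergic markers summed to 358 CPM, against 8.75 to 78.5 CPM in the other 5, and whether its label is right was not tested. Levels are CPM, counts scaled for library size and composition. Markers of medium spiny neurons, 10 of 10 tested, summed to 2388 to 6999 CPM in GF saline and 5325 to 7411 CPM in H2O saline libraries, and the lowest sum, 2388 CPM, was that of GF saline replicate 5. Markers of neighbouring tissue varied more. The 10 hypothalamus and pituitary genes, 7 of them tested, summed to 17.8 to 137 CPM in GF saline, 12.7 to 26.0 CPM in Abx saline and 18.6 to 60.3 CPM in H2O saline libraries. Among the GF saline libraries, replicate 1 had the lowest of these sums and replicate 5 the highest. In morphine mice, 6 cortical-type glutamatergic genes summed to 8.79 to 11.97 CPM in GF, 153 to 975 CPM in Abx and 8.55 to 1175 CPM in H2O libraries. In bulk RNA, fewer cells of a type and less RNA per cell cannot be told apart.

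The promoters of 4 genes that recur in the comparisons are shown, from 250 bases before to 50 bases after a gene start, as RefSeq gives them on GRCm38.p6; 24 of the 27 genes had an entry, with 31 promoters in all. Gabra2 and Gabrg1 encode the alpha2 and gamma1 subunits and are neighbours on chromosome 5, Gabrb2 encodes beta2, and Gad1 encodes the GABA-making enzyme GAD67. Capitals mark the TATA box TATAAA or the GC box GGGCGG on either strand.
Gabra2, chr5:71095800-71096099, minus strand: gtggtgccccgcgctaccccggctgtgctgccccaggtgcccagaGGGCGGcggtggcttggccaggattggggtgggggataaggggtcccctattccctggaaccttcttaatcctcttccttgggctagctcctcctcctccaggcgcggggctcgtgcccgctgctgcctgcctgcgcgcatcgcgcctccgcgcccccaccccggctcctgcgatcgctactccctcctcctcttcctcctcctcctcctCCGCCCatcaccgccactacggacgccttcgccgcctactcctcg
Gabrg1, chr5:70842568-70842867, minus strand: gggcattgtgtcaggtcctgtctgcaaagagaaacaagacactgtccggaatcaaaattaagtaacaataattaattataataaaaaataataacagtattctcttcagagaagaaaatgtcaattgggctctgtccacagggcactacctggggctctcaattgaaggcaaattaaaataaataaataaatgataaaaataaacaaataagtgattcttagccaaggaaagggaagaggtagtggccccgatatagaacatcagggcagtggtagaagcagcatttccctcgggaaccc
Gabrb2, first of its listed starts, chr11:42420190-42420489, plus strand: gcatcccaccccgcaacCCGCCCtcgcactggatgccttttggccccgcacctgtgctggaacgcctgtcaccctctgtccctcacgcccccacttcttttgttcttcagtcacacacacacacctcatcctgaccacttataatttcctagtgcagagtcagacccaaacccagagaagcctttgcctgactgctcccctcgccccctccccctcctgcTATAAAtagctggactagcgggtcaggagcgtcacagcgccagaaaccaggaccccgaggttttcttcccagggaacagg
Gad1, chr2:70561879-70562178, plus strand: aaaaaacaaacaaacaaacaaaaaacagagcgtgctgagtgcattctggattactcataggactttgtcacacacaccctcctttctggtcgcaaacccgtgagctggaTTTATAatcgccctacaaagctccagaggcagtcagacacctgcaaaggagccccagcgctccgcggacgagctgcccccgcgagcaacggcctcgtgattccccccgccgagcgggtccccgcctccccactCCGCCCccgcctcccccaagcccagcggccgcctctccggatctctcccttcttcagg
The Gabra2 promoter was 70.0% G and C with 25 CpG sites and 2 GC boxes, while the Gabrg1 promoter was 38.3% G and C with 3 CpG sites and held none of the motifs searched. The Gabrb2 window held 1 TATA box and 1 GC box at 59.0% G and C, and the Gad1 window 1 of each at 60.0%. Of 32544 mouse promoters of this length, 13.6% held the TATA box, 35.9% the GC box, 1.8% the cAMP response element TGACGTCA and 7.17% the E-box CACGTG, and the median promoter was 53.0% G and C with 7 CpG sites. The 4 windows share no single feature among those searched.

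Levels of different genes were compared as CPM per kilobase of annotated exon (CPM per kb), as mean ± SD over the 6 H2O saline libraries. Annotated exon was the union over all transcripts of a gene, which can exceed the longest transcript. Gad1 has 7639 exonic bases and a longest transcript of 3601, Abat 7748 and 4636, and Gad2 5876 and 5744. Orders here and among the subunits below therefore depend on the length used. The GABARAP-family gene Gabarapl1, which acts in receptor trafficking and autophagy, stood highest at 328 ± 12.2 CPM per kb. The genes that make, load and break down GABA followed: the vesicular transporter gene Slc32a1 at 146 ± 9.26, Gad2 (GAD65) at 132 ± 8.99, the GABA transaminase gene Abat at 105 ± 6.37 and Gad1 at 94.2 ± 4.13 CPM per kb. The GABA-B subunit gene Gabbr1 at 125 ± 5.18 and the chloride exporter gene Slc12a5 (KCC2) at 119 ± 3.62 CPM per kb lay between them, and each of Gad2, Gabbr1 and Slc12a5 overlapped its neighbour in this order within 1 SD.

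Among GABA-A subunits the extrasynaptic delta gene Gabrd was highest, at 60.6 ± 7.32 CPM per kb in H2O saline libraries. Gabrb2 at 27.2 ± 2.34, alpha4 (Gabra4) at 21.5 ± 4.00 and alpha3 (Gabra3) at 21.2 ± 3.69 CPM per kb followed, the last pair not separable by their spread, and alpha5 (Gabra5) stood at 15.3 ± 1.56. Gabra2 at 4.95 ± 0.292 and Gabrg1 at 4.21 ± 0.814 CPM per kb were lower and overlapped within their spread. Beta1 (Gabrb1) at 1.32 ± 0.0989, gamma3 (Gabrg3) at 1.04 ± 0.129, theta (Gabrq) at 0.842 ± 0.400 and epsilon (Gabre) at 0.203 ± 0.135 CPM per kb were the lowest of those tested. Gabra6 had 2 reads over the 33 libraries, and Gabrr1 had 46 reads, at most 4 in a library. Gabra6 is a defining gene of cerebellar granule cells.

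Several genes that no comparison called had a narrow range. Over all 33 libraries Gabra5 ran from 38.5 to 57.5 CPM, Gphn from 83.2 to 117.6 CPM and Gabarapl2, another trafficking gene of the GABARAP family, from 117 to 156 CPM. Gabbr1 ran from 768 to 1018 CPM, Abat from 577 to 989 CPM, Slc12a5 from 624 to 933 CPM, Slc32a1 from 290.3 to 454 CPM and Gad2 from 564 to 1012 CPM. The GABA-B partner subunit gene Gabbr2 spread more, from 76.1 to 219.6 CPM, as did Gabra4, from 63.9 to 240.3 CPM, and the scarce genes Gabrg3, from 6.84 to 20.2 CPM, Gabre, from 0.0969 to 10.04 CPM, and Slc6a13, from 2.37 to 11.7 CPM.

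**Figure D1:**
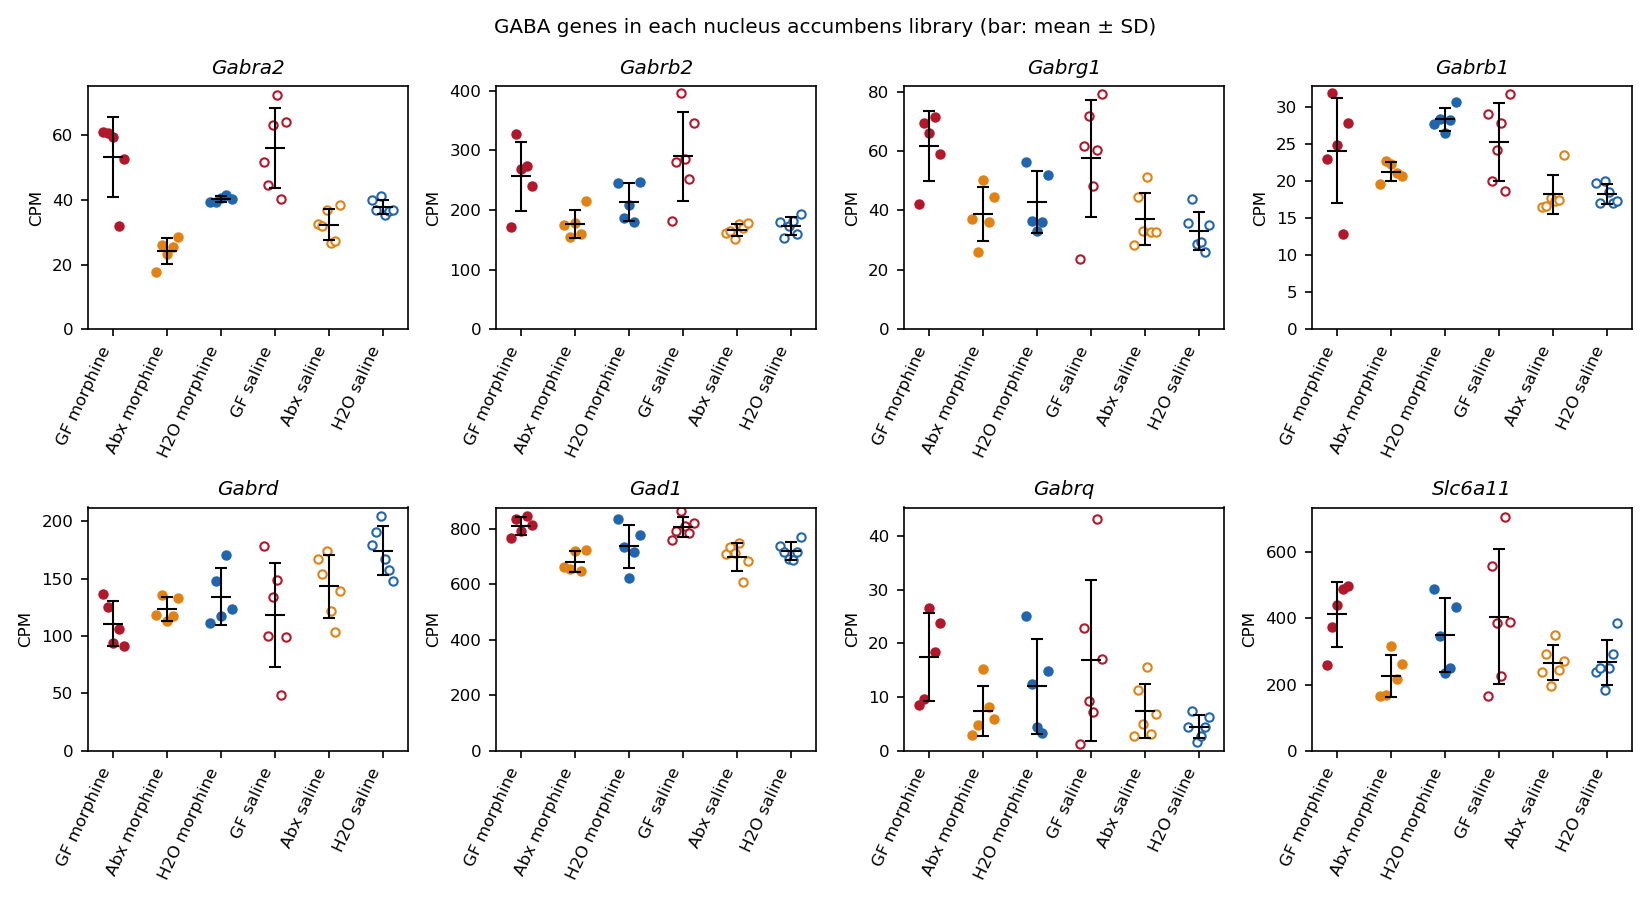
CPM of 8 GABA genes in each library, with filled points for morphine and open points for saline mice in GF, Abx and H2O order within each, and bars for the group mean ± SD. Gabra2 has its lowest mean in Abx morphine mice, whose 5 libraries ran from 17.6 to 28.4 CPM, and Gabrq and Slc6a11 spread most widely in GF saline libraries.

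The first question was how these genes differed in saline mice raised without microbes. Between GF saline and H2O saline mice, 8 of the 25 tested genes rose and 1 fell (edgeR quasi-likelihood test, Benjamini-Hochberg adjusted p under 0.05 over all genes). Over all 14583 genes tested, 18.0% passed higher and 14.9% lower, so in both directions together the share of GABA genes called was near that of genes in general, and the calls leaned more to the higher side. The median log2 fold change of the 25 was 0.16, against 0.01 over all genes. With upper-quartile scaling the split was 6 higher and 3 lower. No gene had every GF saline library above or below every H2O saline library, which 4.79% of all genes did upward and 4.72% downward.

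The synaptic-type subunits carried most of the calls: 5 of 6 rose, with a median log2 fold change of 0.53 over the 6. The beta2 gene Gabrb2, at chr11:42419757-42629028 on GENCODE M21 annotation of GRCm38, had 181, 283 and 396 CPM as lowest, median and highest value in GF saline mice, against 153, 176 and 194 CPM in H2O saline mice. Its 5 higher GF libraries lay above every H2O library, and only replicate 1 lay among them. The log2 fold change was 0.74 ± 0.13 (SE, adjusted p = 0.00015), the firmest of the set.

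Gabra2, whose alpha2 protein sits at synapses of medium spiny neurons, had 40.2, 57.3 and 72.4 CPM as lowest, median and highest in GF saline mice, against 35.4, 36.9 and 41.1 CPM in H2O saline mice. All but 1 GF library exceeded the H2O range, and the log2 fold change was 0.57 ± 0.13 (adjusted p = 0.00151). Its chromosome 5 neighbours gave 2 further calls. Gabrg1 had 23.7, 61.1 and 79.1 CPM in GF saline mice, against 26.0, 32.3 and 43.7 CPM in H2O saline mice, a log2 fold change of 0.78 ± 0.21 (adjusted p = 0.00514). In 5 of the 6 GF libraries the level lay above the H2O range, and in replicate 1 below it.

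Gabrb1 had 18.7, 26.1 and 31.8 CPM in GF saline mice, against 17.0, 17.9 and 20.1 CPM in H2O saline mice. Of 6 GF libraries, 4 lay above the H2O range, at a log2 fold change of 0.48 ± 0.13 (adjusted p = 0.00627). The fourth gene of the chromosome 5 cluster, extrasynaptic-type Gabra4, shares 46 exonic bases with Gabrb1 on the opposite strand and did not pass (0.25 ± 0.18, adjusted p = 0.308). Gabra3 on chromosome X had 74.9, 113 and 133 CPM in GF saline mice, against 63.8, 81.8 and 101 CPM in H2O saline mice, and its call at 0.38 ± 0.15 (adjusted p = 0.047) was lost in 5 of 9 other settings and 8 of 12 fits without a library. Gabrg3 did not pass (0.24 ± 0.16, adjusted p = 0.262).

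None of the 3 extrasynaptic-type subunit genes that could be tested rose with all libraries in the fit. Gabrd fell: its lowest, median and highest values were 48.8, 117 and 178 CPM in GF saline mice, against 148, 173 and 204 CPM in H2O saline mice. In 4 of 6 GF libraries it lay below the H2O range, at a log2 fold change of -0.55 ± 0.18 (adjusted p = 0.0176), and without GF saline replicate 6 the change was -0.50 and just missed the threshold (adjusted p = 0.0504). Gabra5 differed by 0.11 ± 0.09 (adjusted p = 0.318). Both Gabrd and Gabra4 were lowest in GF saline replicate 5, at 48.8 and 63.9 CPM, the library with the lowest sum of medium spiny neuron markers. Without that library Gabra4 passed as higher (0.40, adjusted p = 0.0376) and Gabrd stayed lower (-0.39, adjusted p = 0.0343). Of those 10 markers, 2 were lower and 0 higher in GF saline mice, where 14.9% of all genes were called lower and 18.0% higher. The part of these markers in the Gabrd result was not tested. The difference between synaptic and extrasynaptic types was not itself tested.

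The theta and epsilon subunit genes Gabrq and Gabre, known chiefly from hypothalamus and brainstem, were scarce and variable. Gabrq had 1.28, 13.1 and 43.2 CPM in GF saline mice, against 1.60, 4.47 and 7.37 CPM in H2O saline mice, a log2 fold change of 1.80 ± 0.58 (adjusted p = 0.0175). Gabre, which lies near it on chromosome X with Gabra3 between them, had 0.508, 2.04 and 10.04 CPM in GF saline mice, against 0.0969, 1.11 and 1.63 CPM in H2O saline mice, and did not pass (1.40 ± 0.63, adjusted p = 0.0861). Both were highest in GF saline replicate 5, which also had the highest sum of hypothalamus and pituitary markers, 137 CPM; without that library the Gabrq change was 1.27 and no longer passed. In the H2O morphine, Abx morphine and GF morphine groups, too, the library with the highest marker sum had the highest Gabrq level. In the H2O saline and Abx saline groups it did not. H2O saline replicate 6, with the highest marker sum of its group, 60.3 CPM, had 2.81 CPM of Gabrq.

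Of the genes for making and loading GABA, Gad1 rose slightly, with 759, 801 and 863 CPM in GF saline mice, against 686, 717 and 769.8 CPM in H2O saline mice (0.16 ± 0.06, adjusted p = 0.0298). In 5 of 6 GF libraries it lay above the H2O range, but the call was lost in 7 of 12 fits without a library. Gad2 (0.18 ± 0.09, adjusted p = 0.135) and Slc32a1 (-0.11 ± 0.08, adjusted p = 0.298) did not pass. Slc32a1 shares 24.9% of its exonic bases with an antisense gene, and the sources used here give no strand setting.

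The astrocytic uptake transporter gene Slc6a11 (GAT3) had 166, 388 and 707 CPM in GF saline mice, against 184, 249 and 386 CPM in H2O saline mice. The groups overlapped and the change of 0.60 ± 0.25 missed the threshold (adjusted p = 0.0664). Slc6a13 (GAT2), a transporter gene of meninges and vessels (-0.27 ± 0.27, adjusted p = 0.461), and Abat (0.04 ± 0.08, adjusted p = 0.731) did not pass. The chloride importer gene Slc12a2 (NKCC1) rose, with 68.8, 102 and 119 CPM in GF saline mice, against 68.1, 70.1 and 79.8 CPM in H2O saline mice (0.41 ± 0.11, adjusted p = 0.00429); 4 of 6 GF libraries lay above the H2O range. Its counterpart Slc12a5, the neuronal exporter, did not pass (-0.09 ± 0.06, adjusted p = 0.262), nor did the GABA-B genes, the gephyrin gene Gphn or any of the 3 GABARAP-family genes.

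Hypothalamus and pituitary markers moved in the same comparison, with 4 of 7 higher in GF saline mice, as did endothelial markers, with 5 of 8 lower. Astrocyte markers were higher for 2 of 8, near the 18.0% of all genes called higher. With the cortical and hypothalamic marker levels as covariates, a setting chosen after seeing the data, 4 GABA genes were called. Gabra2, Gabrb1 and Gabrb2 stayed higher, Slc32a1 was called lower (-0.24, adjusted p = 0.0224), and Gabrq turned to -0.20. Without GF saline replicate 1, 12 genes were called, with Slc6a11 (0.76, adjusted p = 0.0119) and Gabre (1.68, adjusted p = 0.0324) added as higher and Gphn (-0.16, adjusted p = 0.0494) as lower.

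Antibiotic treatment of saline mice gave no call among the 25 genes, where 0.117% of all genes passed. DESeq2 and limma voom also called 0, and 1 gene, Gabbr1, had an unadjusted p under 0.05, as 12.1% of all genes did (-0.12 ± 0.06, adjusted p = 0.411). Gabbr1, the subunit that binds GABA in GABA-B receptors, had 829.4, 889 and 979 CPM as lowest, median and highest value in Abx saline mice, against 905, 969 and 1018 CPM in H2O saline mice, with overlap. The median log2 fold change of the 25 genes was -0.05, against 0.01 over all genes.

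GF saline mice were also set against Abx saline mice, which had been raised with microbes. The comparisons share the GF saline and Abx saline libraries with those above. Here 6 of 25 genes rose and 0 fell, where 27.3% of all genes passed, 14.6% higher and 12.8% lower, so the share called was near that of all genes. Synaptic-type subunits made up 4 of the 6, and no extrasynaptic-type gene passed with edgeR and all libraries. In 3 genes, Gabra2, Gabrb2 and Gad1, every GF saline library lay above every Abx saline library, which 2.58% of all genes did.

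Gabra2 had 40.2, 57.3 and 72.4 CPM in GF saline mice, against 26.7, 32.2 and 38.3 CPM in Abx saline mice, and the groups did not overlap (0.80 ± 0.13, adjusted p = 9.8e-05). Gabrb2 had 181, 283 and 396 CPM in GF saline mice, against 151, 167 and 178 CPM in Abx saline mice, again without overlap (0.80 ± 0.13, adjusted p = 0.00012). Gad1 had 759, 801 and 863 CPM in GF saline mice, against 607, 709.6 and 749 CPM in Abx saline mice (0.20 ± 0.06, adjusted p = 0.00872).

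The other calls overlapped at the edges. Gabrb1 (0.49 ± 0.13, adjusted p = 0.00728), Slc12a2 (0.52 ± 0.11, adjusted p = 0.000874) and Gabrg1 (0.62 ± 0.21, adjusted p = 0.0271) rose, the last with replicate 1 of the GF saline mice below the Abx range. Gabra4 (0.48 ± 0.18, adjusted p = 0.0527) and Slc6a11 (0.61 ± 0.25, adjusted p = 0.0729) missed the threshold. Gabra4 passed with DESeq2 (adjusted p = 0.0451), with limma voom (adjusted p = 0.036) and without GF saline replicate 2, GF saline replicate 5 or Abx saline replicate 3, where its change was 0.58, 0.63 and 0.55. Without GF saline replicate 1, Slc6a11 (0.76, adjusted p = 0.0133) and Gabrq (1.37, adjusted p = 0.0362) passed. The Gabrg1 call was lost in 6 of 12 fits without a library. Hypothalamus and pituitary markers were higher for 5 of 7 genes in this comparison, and with the marker covariates Gabrg1 turned to -0.08. Gad1 (0.08, adjusted p = 0.34) and Slc12a2 (0.37, adjusted p = 0.0545) also lost their calls in that fit, Gabrq turned to -1.31 and was called lower, as was Slc6a13 at -0.92, and Gabra4 was called higher.

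**Figure D2:**
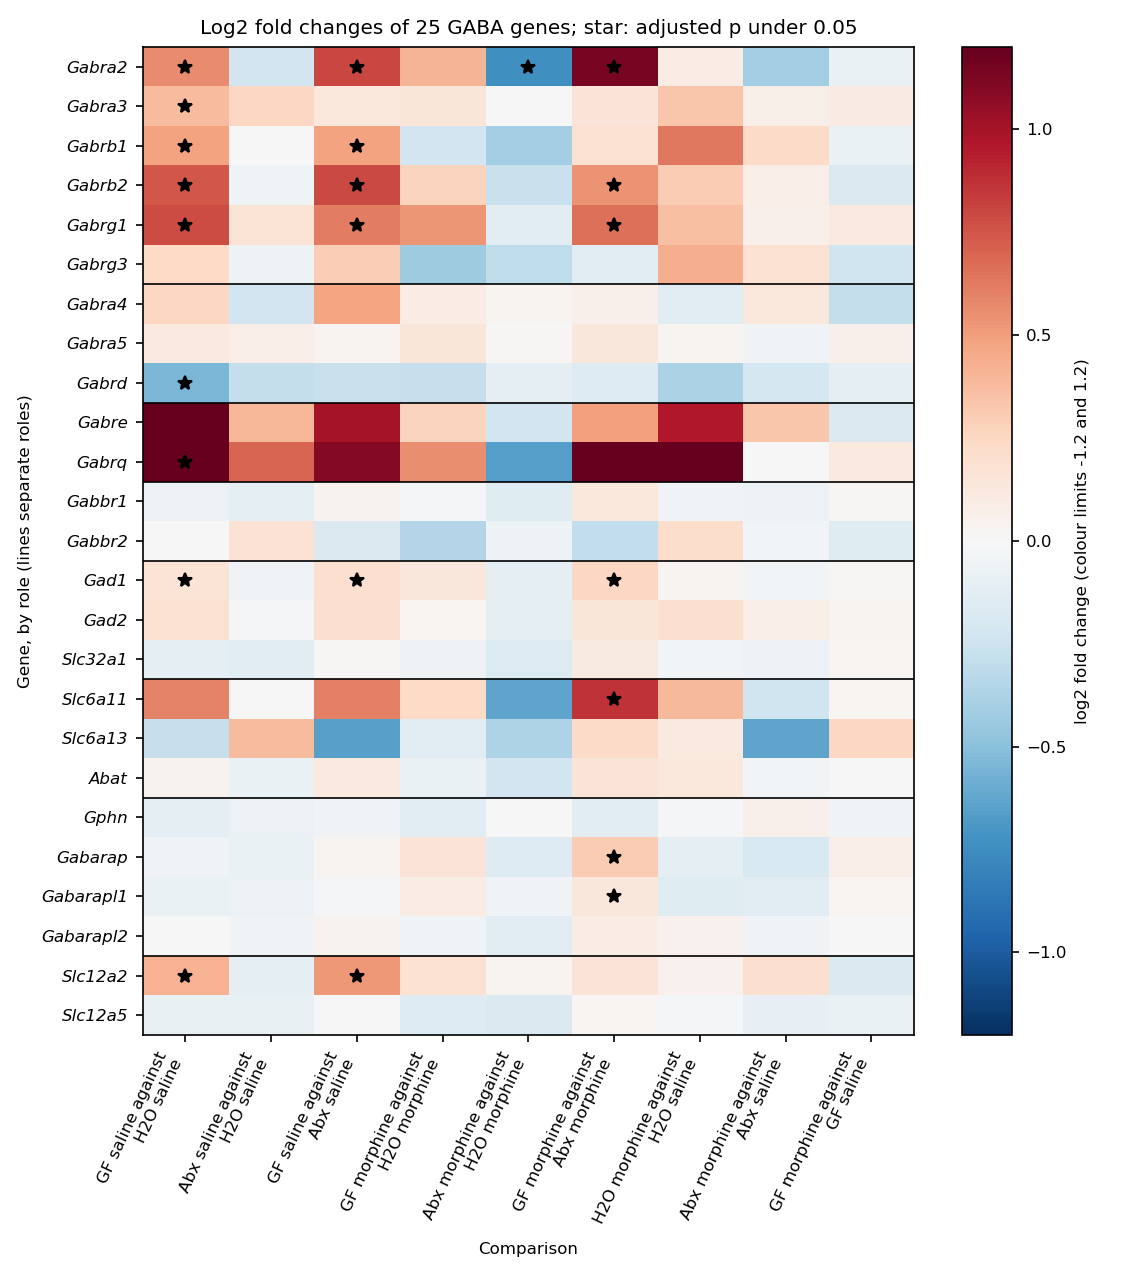
Log2 fold change of the 25 tested genes in the 9 pairwise comparisons, grouped by role, on a colour scale limited at 1.2 in either direction, with stars at adjusted p under 0.05. The stars gather among synaptic-type subunits in the comparisons of GF with other saline mice. Between GF and Abx morphine mice 3 of 7 stars lie there, and the 3 morphine against saline comparisons have none.

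Among morphine mice the widest contrast was between GF and Abx mice. In GF morphine against Abx morphine mice 7 of 25 genes rose and 0 fell, where 28.1% of all genes passed, 14.7% higher and 13.4% lower, a share near that of the GABA genes. Gabra2 led: it had 60.9, 60.8, 59.5, 31.9 and 52.7 CPM in GF morphine mice, against 17.6, 26.0, 23.2, 25.4 and 28.4 CPM in Abx morphine mice. The groups did not overlap, with GF morphine replicate 5 nearest to the Abx values, and the log2 fold change was 1.14 ± 0.15 (adjusted p = 1.76e-06). In all 9 other settings and all 10 fits without a library this call held.

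Gabrb2 had 171, 328, 269, 273 and 241 CPM in GF morphine mice, against 176, 155, 179, 160.0 and 215 CPM in Abx morphine mice. Of the GF libraries 4 lay above the Abx range (0.54 ± 0.15, adjusted p = 0.00738). Gabrg1 rose by 0.66 ± 0.23 (adjusted p = 0.0269), exceeding the Abx range in 4 of 5 GF libraries, and lost its call in 5 of 10 fits without a library.

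Gad1 had 766, 836, 793, 847 and 812 CPM in GF morphine mice, against 661, 656, 719.7, 648 and 723 CPM in Abx morphine mice. Every GF library lay above every Abx library, as in 7.87% of all genes (0.25 ± 0.06, adjusted p = 0.00364). Slc6a11 had 258, 375, 439, 488 and 497 CPM in GF morphine mice, against 166, 167, 317, 215 and 262 CPM in Abx morphine mice. Of its GF libraries, 4 lay above the Abx range (0.87 ± 0.28, adjusted p = 0.0199), and without Abx morphine replicate 1 or 2 the call was lost.

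From the GABARAP family, whose founding member binds gamma2 subunits, Gabarap had 131, 137, 136, 188 and 132 CPM in GF morphine mice, against 117, 123, 115, 112 and 118 CPM in Abx morphine mice. The groups did not overlap, and replicate 5 of the GF morphine mice stood well above the rest (0.31 ± 0.07, adjusted p = 0.00157). Gabarapl1 rose by 0.13 ± 0.05 (adjusted p = 0.039); it was highest in the same library, and the call was lost in 4 of 10 fits without a library (GF morphine replicate 5, at 0.08, and Abx morphine replicates 3, 4 and 5) and in 4 of 9 other settings. Gabarapl1 shares 28.3% of its exonic bases with a transcript on the opposite strand.

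The marker lists moved strongly between these groups. Cortical-type glutamatergic markers were lower in GF morphine mice for 6 of 6 genes, microglial markers higher for 8 of 8, and hypothalamus and pituitary markers higher for 3 of 7. With the marker covariates 2 of the 7 calls remained, Gabra2 and Gabarap, and Gabrg1 turned to -0.19 and Slc6a11 to -0.05.

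Abx morphine mice differed from H2O morphine mice in 1 GABA gene at the threshold, where 10.3% of all genes passed, 4.57% higher and 5.76% lower. Gabra2 fell, with 17.6, 26.0, 23.2, 25.4 and 28.4 CPM in Abx morphine mice, against 39.3, 39.3, 40.5, 41.4 and 40.2 CPM in H2O morphine mice. Every Abx library lay below the narrow H2O range, at a log2 fold change of -0.73 ± 0.15 (adjusted p = 0.00109), and the call held in all 9 other settings and all 10 fits without a library.

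In 3 further genes every Abx morphine library lay below every H2O morphine library without passing the test, as 7.17% of all genes did. Gabrb1 had 19.7, 22.8, 22.4, 21.1 and 20.7 CPM in Abx morphine mice, against 27.8, 28.4, 26.6, 28.3 and 30.7 CPM in H2O morphine mice (-0.41 ± 0.14, adjusted p = 0.0542). Slc12a5 had 742, 804, 807, 766 and 778 CPM in Abx morphine mice, against 922, 933, 821, 877 and 849.7 CPM in H2O morphine mice (-0.18 ± 0.07, adjusted p = 0.0947). Gabarap differed by -0.16 ± 0.07 (adjusted p = 0.151).

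The count of calls in this comparison depended on the fit. It was 11 lower with limma voom, 5 in a fit of only these groups, 4 with length and GC offsets, 4 without H2O morphine replicate 4 and 2 with DESeq2. The median log2 fold change of the 25 genes was -0.14 and 4 of 25 were positive, against a median of -0.00 over all genes. Microglial markers were lower in Abx morphine mice for 7 of 8 genes, and their part in the GABA gene values was not tested.

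GF morphine against H2O morphine mice gave no call among the 25 genes, where 5.86% of all genes passed (edgeR). At an unadjusted p under 0.05 there were 7, against 24.0% of all genes, DESeq2 called 0 and limma voom called 1, Gabra2. Gabra2 had 60.9, 60.8, 59.5, 31.9 and 52.7 CPM in GF morphine mice, against 39.3, 39.3, 40.5, 41.4 and 40.2 CPM in H2O morphine mice. All but replicate 5 of the GF libraries lay above the H2O range (0.41 ± 0.14, adjusted p = 0.0856), and without that replicate the change was 0.55 and passed (adjusted p = 0.0167). Replicate 5 had the largest share of reads not assigned to genes, 35.4%.

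C57BL/6J mice are known to carry a deletion in an intron of Gabra2 that lowers its RNA relative to other C57BL/6 substrains, and a deletion within Nnt, a mitochondrial enzyme gene. Nnt had 21.7 to 25.7 CPM in GF saline and 20.9 to 24.9 CPM in H2O saline mice and did not pass (0.06, adjusted p = 0.461). It did pass in comparisons where Gabra2 was called: Abx morphine against H2O morphine mice (-0.44, adjusted p = 6.75e-05), GF morphine against Abx morphine mice (0.49, adjusted p = 6.91e-06) and GF saline against Abx saline mice (0.34, adjusted p = 0.000307). Ide, an insulin-degrading enzyme gene reported to differ between substrains, had a mean of 51.5 ± 2.76 CPM in GF saline mice, against 84.7 ± 16.3 CPM in H2O saline mice (SD, n = 6 each), a log2 fold change of -0.72 (edgeR adjusted p = 0.000145). Ide was also lower in GF saline against Abx saline mice (-0.82, edgeR adjusted p = 5.64e-05). GF morphine mice had less Ide than H2O morphine (-0.87, edgeR adjusted p = 0.00054) and Abx morphine mice (-0.87, adjusted p = 4.73e-05). Abx and H2O mice did not differ in Ide at the threshold, with morphine (-0.00088, edgeR adjusted p = 0.998) or saline (0.10, adjusted p = 0.812). Of the other genes listed for substrains, Entpd4 was lower (-0.80, adjusted p = 0.00196) and Wdfy1 higher (0.34, adjusted p = 0.0175) in GF saline against H2O saline mice. In Abx morphine against H2O morphine mice Entpd4 was lower (-0.68, adjusted p = 0.0257) and Wdfy1 higher (0.41, adjusted p = 0.0165), and in GF saline against Abx saline mice likewise (-0.61, adjusted p = 0.018, and 0.29, adjusted p = 0.0424). Entpd4 was also lower in GF morphine against H2O morphine mice (-0.72, edgeR adjusted p = 0.0395), where edgeR did not call Gabra2. Such calls also arose between Abx morphine and Abx saline mice, where edgeR did not call Gabra2. There Nnt (-0.26, edgeR adjusted p = 0.0187) and Entpd4 (-0.65, adjusted p = 0.0444) were lower and Wdfy1 higher (0.39, adjusted p = 0.0317). Counts per gene carry no genotype, and the part of substrain in the Gabra2 values was not tested.

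Morphine was compared with saline within each microbial state. In H2O mice no GABA gene passed (edgeR), nor did any of all genes tested, a share of 0%. At an unadjusted p under 0.05 there were 7 GABA genes, against 15.2% of all genes, and DESeq2 called 2 and limma voom 3. Shares of all genes called by DESeq2 and limma voom are not given here. Gabrb1 came nearest, with 27.8, 28.4, 26.6, 28.3 and 30.7 CPM in H2O morphine mice, against 17.0, 17.9 and 20.1 CPM as lowest, median and highest in H2O saline mice. Every morphine library lay above every saline library, as in 3.44% of all genes. The log2 fold change was 0.63 ± 0.13 at an adjusted p of 0.0652 with edgeR, the smallest of any gene in this comparison, and DESeq2 gave 0.00535.

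Gabarapl1 had 614, 606, 580.1, 588 and 599 CPM in H2O morphine mice, against 637, 659 and 699 CPM as lowest, median and highest in H2O saline mice. Every morphine library lay below every saline library, as in 2.37% of all genes, at a log2 fold change of -0.15 ± 0.05 (edgeR adjusted p = 0.136, DESeq2 adjusted p = 0.0183). Gabrg3 (0.43 ± 0.16, adjusted p = 0.199), Gabrd (-0.38 ± 0.18, adjusted p = 0.328) and Gabrq (1.36 ± 0.59, adjusted p = 0.267) did not pass.

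In Abx mice morphine gave no call among the GABA genes (edgeR), where 5.43% of all genes passed. Of the GABA genes 4 had an unadjusted p under 0.05, against 20.6% of all genes. DESeq2 called 3 and limma voom 4, and their shares over all genes are not given here. Gabra2 had 17.6, 26.0, 23.2, 25.4 and 28.4 CPM in Abx morphine mice, against 26.7, 32.2 and 38.3 CPM as lowest, median and highest in Abx saline mice (-0.42 ± 0.14, adjusted p = 0.0755). All but 1 of the morphine libraries lay below the saline range. Gabarap lay below the saline range in 5 of 5 morphine libraries, as 3.34% of all genes did, at -0.19 ± 0.07 (adjusted p = 0.0931).

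In GF mice morphine gave no call (edgeR), where 0.00686% of all genes passed, and 0 GABA genes, against 6.60% of all genes, had an unadjusted p under 0.05. DESeq2 and limma voom called 0. The smallest adjusted p was that of Slc12a2, with 59.3, 98.0, 94.7, 86.5 and 84.3 CPM in GF morphine mice, against 68.8, 102 and 119 CPM as lowest, median and highest in GF saline mice (-0.18 ± 0.11, adjusted p = 0.795). The groups overlapped widely.

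Whether the morphine response differed between microbial states was tested as 2 interactions, and no GABA gene passed either with edgeR, where 0% and 0.110% of all genes did. The response of GF minus that of H2O mice had 4 genes with an unadjusted p under 0.05, against 15.9% of all genes, led by Gabrb1 (-0.71 ± 0.20, adjusted p = 0.105), which DESeq2 called (adjusted p = 0.0321) and limma voom did not. The response of Abx minus that of H2O mice had 2 such genes, against 7.89% of all genes, and no call with DESeq2 or limma voom. Gabra2 came nearest there (-0.51 ± 0.20, adjusted p = 0.472).

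Gene length and base composition were set beside these values. Over 14475 genes with an annotation, the log2 fold change of GF saline against H2O saline had a Spearman correlation of -0.49 with the GC content of the longest transcript, 0.32 with exonic length and 0.28 with gene span, a description over genes of the same libraries. When genes were cut into 4 equal bins by GC, 42.2% of the lowest bin were called higher and 2.21% lower, against 3.01% and 32.1% of the highest bin. The GABA genes that rose had 35.3% (Gabrg1) to 47.3% (Gad1) GC, and Gabrd, which fell, had 54.8%. Their exonic lengths ran from 3.92 kb (Gabra3) to 13.8 kb (Gabrb1), against 2.88 kb for Gabrd.

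With offsets for length and GC, 2 of the 9 calls remained between GF saline and H2O saline mice, Gabrb2 at 0.56 (adjusted p = 0.00158) and Gabrq at 1.67 (adjusted p = 0.0426). Gabra2 became 0.20 (adjusted p = 0.251) and Gabrd -0.41 (adjusted p = 0.125). Between GF saline and Abx saline mice 4 genes were called with these offsets, among them Gabra2 at 0.45 (adjusted p = 0.0129). Between GF morphine and Abx morphine mice, where the correlations were -0.19 with GC and -0.06 with exonic length, 8 were called, and Gabra2 stood at 1.01. Between H2O morphine and H2O saline mice the correlations were -0.30 with GC and 0.39 with exonic length. For the GF minus H2O interaction they were 0.34 and -0.44. Gabrb1, which came nearest to the threshold in both, has 13.8 kb of exon. Gabarapl1, lower in H2O morphine mice, has 2.01 kb. The part of length in these values was not tested.

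**Figure D3:**
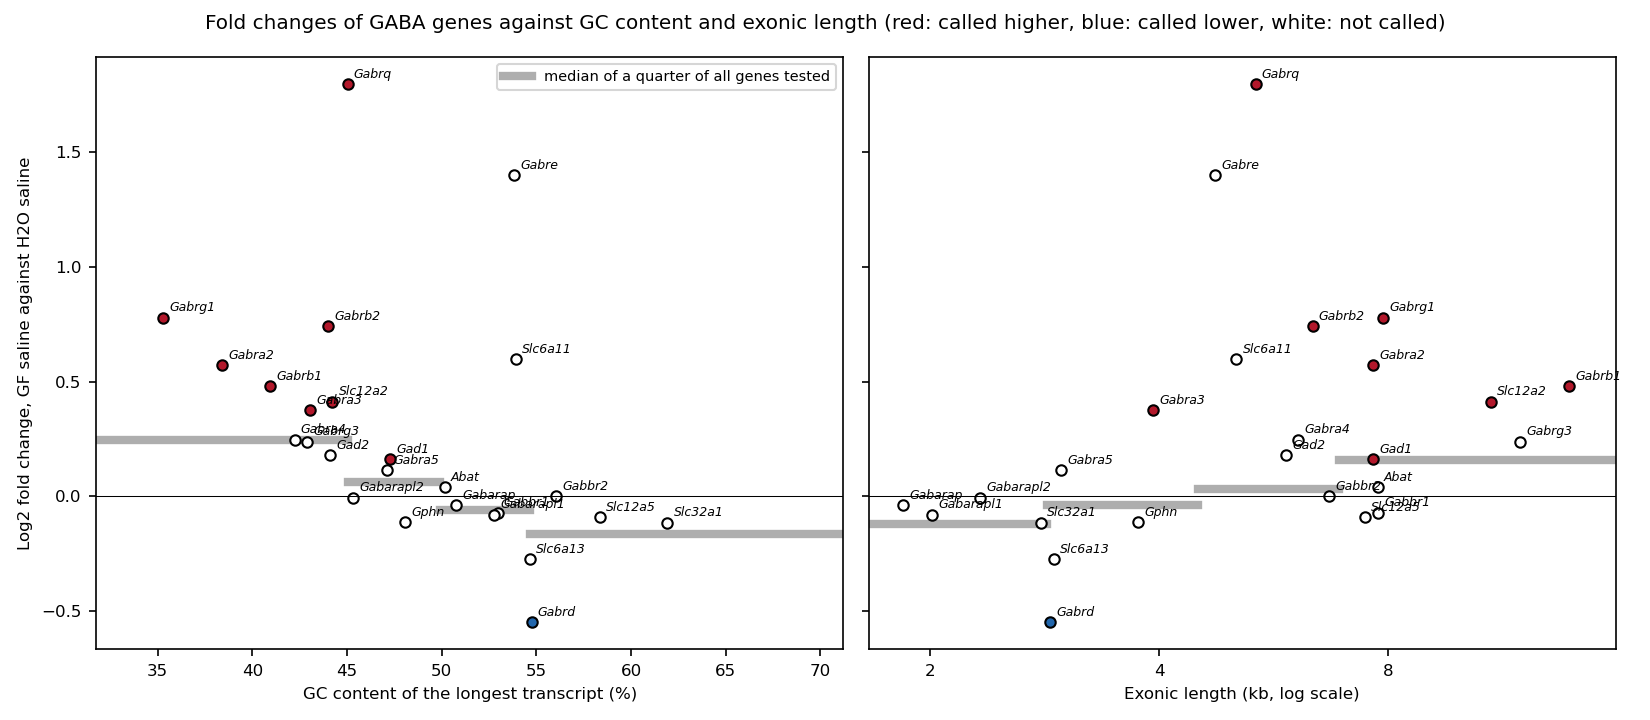
Log2 fold change of each GABA gene in GF saline against H2O saline mice, plotted against GC content in percent and against exonic length in kb on a log axis, with grey bars for the median of all genes in each of 4 equal bins (0.25 in the lowest GC bin, -0.16 in the highest). Genes called higher (red) lie at the low-GC side and Gabrd (blue) at the high-GC side.

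**Figure D4:**
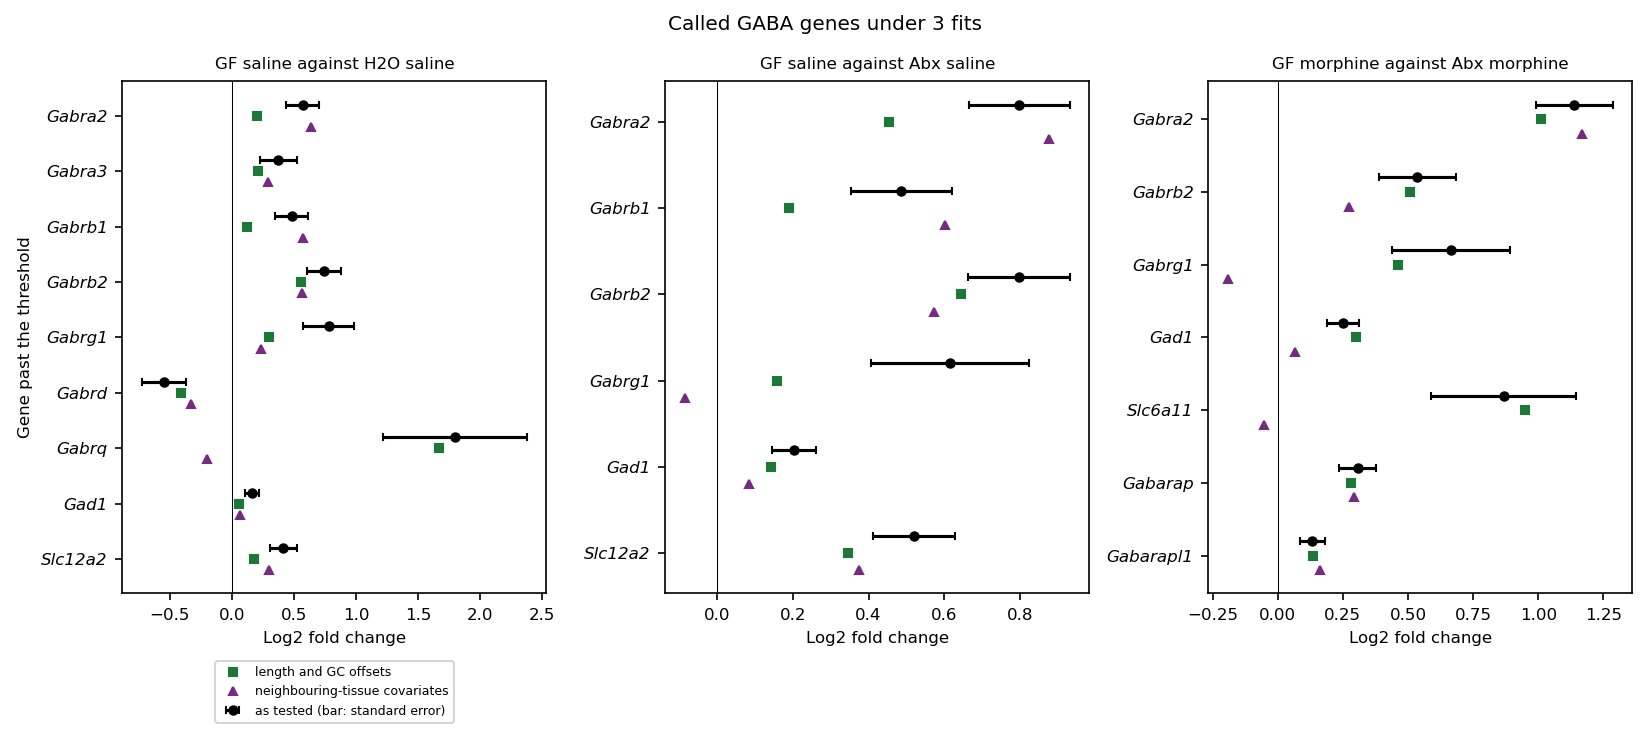
Log2 fold changes of the called GABA genes in 3 comparisons, as tested (black, ± SE), with length and GC offsets (green squares) and with marker covariates (purple triangles). Gabrb2 keeps a value of 0.56 with the offsets between GF saline and H2O saline mice, while the Gabra2 value there becomes 0.20.

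A further list of 27 GABA genes outside the set, of receptor-associated proteins, glutamine supply and other transporters, had 24 tested. Between GF saline and H2O saline mice 5 rose and 4 fell, near the 18.0% and 14.9% of all genes. Slc38a1, a neuronal glutamine transporter gene, had a mean of 239 CPM in GF saline mice, against 175 CPM in H2O saline mice (0.45 ± 0.09, adjusted p = 0.000674). Slc38a3, the astrocytic glutamine exporter gene, had a mean of 73.4 CPM in GF saline mice, against 99.2 CPM in H2O saline mice (-0.43 ± 0.07, adjusted p = 2.2e-05). Nlgn2, the adhesion protein of inhibitory synapses, had a mean of 295 CPM in GF saline mice, against 337 CPM in H2O saline mice, with every GF library below the H2O range (-0.19 ± 0.05, adjusted p = 0.00312). The GABA breakdown gene Aldh5a1 did not pass (0.07 ± 0.07, adjusted p = 0.419).

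In the other comparisons of this list, 6 rose and 2 fell between GF saline and Abx saline mice, where 27.3% of all genes passed, and 0 passed between Abx saline and H2O saline mice, where 0.117% did. Between GF morphine and Abx morphine mice 4 rose and 2 fell (28.1% of all genes), between Abx morphine and H2O morphine mice 1 rose and 1 fell (10.3%), and between GF morphine and H2O morphine mice 1 rose and 2 fell (5.86%). The counts between GF saline and Abx saline mice and between GF morphine and Abx morphine mice lie near their shares. The riser in Abx morphine mice was the rho2 subunit gene Gabrr2, at 4.05 ± 1.31 CPM in Abx morphine and 0.874 ± 0.425 CPM in H2O morphine mice (SD, n = 5 each), a log2 fold change of 2.21 ± 0.37 (edgeR adjusted p = 0.000174). Against Abx saline mice, at 1.53 ± 0.943 CPM, its change was 1.37 ± 0.33 (edgeR adjusted p = 0.0134). Slc38a3 fell, at 64.5 ± 6.88 CPM in Abx morphine and 97.2 ± 7.91 CPM in H2O morphine mice without overlap (-0.59 ± 0.07, edgeR adjusted p = 1.02e-06). In GF morphine against H2O morphine mice the glutamine synthetase gene Glul rose, at 1360.0 ± 57.6 CPM in GF morphine and 1176 ± 40.6 CPM in H2O morphine mice (0.21 ± 0.06, edgeR adjusted p = 0.0468).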

How the data were processed

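Libraries came from polyadenylated RNA (SMARTer cDNA, fragmented before indexing), per the labels' protocols. The authors deposited raw counts of reads for each gene symbol. The submitters' processing notes name FastQC, STAR 2.4.0 and edgeR; no build, annotation, strand setting or counting program is given in the sources used here. The second deposited table, a normalised one, was not used. From the counts, 27 date-like names were left out (24034 genes remained), as were 5 tally entries, which held 19.3% to 35.4% of tallied reads. A single edgeR 4.0.16 fit (R 4.3.3, limma 3.58.1) of 6 group means over 33 libraries used filterByExpr (minimum count 10; 14583 genes), TMM factors, 27 residual degrees of freedom and, as biological coefficient of variation, a common 0.128. Quasi-likelihood F tests were two-sided, with Benjamini-Hochberg adjustment over all genes at 0.05, for 9 pairwise comparisons and 2 interactions. The SE is the log2 fold change divided by the square root of F.

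Every listed gene was described; from the further list, at most 4 per comparison by smallest p, with Aldh5a1, Nlgn2 and Glul; 1 further gene of that rule is not reported here. The genes, lists and rules were chosen with earlier results of these data known. Exonic length and GC content came from GENCODE M21 for 99.3% of tested genes, and promoters from RefSeq, GRCm38.p6; the reads may have been counted on another build. Replicates correlated at r from 0.957 to 0.992, and chi-squared divided by its degrees of freedom was 3.12 to 37.3 over pairs, so none looked like a library deposited again. Alternatives were DESeq2 1.42.0, limma voom with quality weights, RLE factors, upper-quartile factors, no filter, only the groups compared, a replicate block, length and GC offsets, each library left out and marker covariates. On data simulated for GF saline against H2O saline mice with 14493 genes, 70.0% of 1.5-fold and 87.0% of 2-fold changes were recovered, with 6 false calls. The simulated counts held no length or GC trend and no tissue differences, so these rates do not measure errors in the real comparison.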

Additional observations from a re-analysis of the deposited data

Results flagged for a closer look

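Over 150 groups of values, 11 had 1 library set apart from the others by more than a 95% critical value allows, which chance does in about 1 group of 20. In GF morphine replicate 5, Gabra2 was low at 31.9 CPM (others 52.7 to 60.9), while Gabarap was high at 188 CPM (others 131 to 137) and Gabarapl1 at 723 CPM (others 599 to 625). In GF saline replicate 5, Gabre was high at 10.04 CPM (others 0.508 to 2.72). GF morphine replicate 3 had 8.13 CPM of Slc6a13 (others 2.37 to 3.73).

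Abx saline replicate 5 had 219.6 CPM of Gabbr2 (others 111 to 148) and 577 CPM of Abat (others 755 to 855). Abx saline replicate 6 had 23.5 CPM of Gabrb1 (others 16.6 to 17.7), and Abx saline replicate 1 had 11.7 CPM of Slc6a13 (others 3.08 to 5.16). H2O morphine replicate 4 was low in Slc32a1 at 290.6 CPM (others 413 to 454) and in Abat at 650.1 CPM (others 912 to 989).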

How the results depend on the processing

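Gabrb2 between GF saline mice and either other saline group, Gabra2 between GF saline and Abx saline, Abx morphine and H2O morphine, and GF morphine and Abx morphine mice, and Gabarap between GF morphine and Abx morphine mice stayed called in all 9 other settings and without each library. The count of GABA genes called between GF saline and H2O saline mice, 9, became 2 with length and GC offsets and 4 with marker covariates, which were chosen after seeing the data. Between Abx morphine and H2O morphine mice, the count of 1 became 2 with DESeq2, 11 with limma voom, 2 with upper-quartile factors, 5 with only the groups compared, 4 with length and GC offsets and 2 with marker covariates. Between GF morphine and Abx morphine mice, 7 became 2 with marker covariates. Counts of 0 became 1 with limma voom for GF morphine against H2O morphine; 2 with DESeq2, 3 with limma voom and 3 with only the groups compared for H2O morphine against H2O saline; 3 with DESeq2, 4 with limma voom, 1 with only the groups compared and 1 with length and GC offsets for Abx morphine against Abx saline; and 1 with DESeq2 for the GF minus H2O interaction. Shares over all genes in these other settings are not given here, so a higher count can belong to a fit that calls more genes of any kind. Sign changes were counted only where a gene was called as tested or in the other setting. Those came with marker covariates alone: Gabrq went to -0.20 and, against Abx saline, to -1.31. Gabrg1 went to -0.085 against Abx saline and to -0.19 against Abx morphine, and Slc6a11 to -0.053. Without 1 library the counts ranged from 6 to 12 (GF saline against H2O saline), 5 to 8 (GF saline against Abx saline), 0 to 1 (GF morphine against H2O morphine), 1 to 4 (Abx morphine against H2O morphine), 5 to 7 (GF morphine against Abx morphine) and 0 to 1 (GF minus H2O interaction), and were 0 to 0 in the rest. The interaction call was Gabrb1, without GF saline replicate 5 or GF morphine replicate 2. The causes of these changes were not tested. Genes near 1 CPM, such as Gabre, are limited by depth.

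With the replicate block, 11 GABA genes were called between GF saline and H2O saline mice, 6 between GF morphine and Abx morphine mice, 6 between GF saline and Abx saline mice and 1 between Abx morphine and H2O morphine mice. Over 66 pairs of libraries with the same replicate number the mean correlation of deviations was 0.000465, from -0.459 to 0.442. Single pairs varied widely, so this mean cannot exclude that some numbers mark a shared cage or batch.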
